A study of Mus musculus with 6 samples.

Results

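The purinergic receptors P2rx2, P2rx3, P2rx4, P2rx5, P2rx6, P2rx7, P2ry1, P2ry2, P2ry12 and P2ry14 were examined in dorsal root ganglia (DRGs) of Tlx3cko mice. They were found by matching these 10 symbols to the Ensembl mouse gene identifiers of a read count table of 47937 loci, and all 10 were present once. The set holds 6 P2X and 4 P2Y receptors. Total RNA of DRGs taken at cervical, thoracic and lumbar levels was sequenced from 3 control and 3 Tlx3cko mice, all on the C57BL/6 strain and about 2 months old. The control genotype is labelled wild type. The study calls the sequenced animals control mice, and its behavioural tests used littermates with floxed Tlx3 alleles as controls. Whether the sequenced controls carried floxed alleles is not stated beyond the label. The Tlx3cko genotype is labelled Tlx3f/f;SNS-cre, meaning that floxed alleles of the homeobox transcription factor Tlx3 were removed by Cre recombinase under the control of Nav1.8 (SNS), a sodium channel of most nociceptive neurons. Tlx3 was therefore not removed from ganglion neurons that never express Nav1.8, and no cells were sorted, so each library mixes all neuron classes with glia, vessels and blood. No pooling of mice is described.

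P2X receptors are cation channels opened by extracellular ATP, and each channel is built from several subunits of the same or of different kinds. P2Y receptors are G protein-coupled receptors for ATP, ADP, UTP or nucleotide sugars. Sensory neurons of the DRG are a classic site of purinergic signalling, because ATP that leaves damaged or stretched cells excites nociceptors through channels that contain P2X3, alone or assembled with P2X2. Enzymes on the cell surface then break ATP down to adenosine, which acts on its own receptors and is cleared by transporters.

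The libraries held 11458299 to 18775628 counts. Values below are counts normalized to a common library size of 14974185 by edgeR's TMM method, and fold changes are Tlx3cko against control on the log2 scale with standard errors (SE). The threshold was an edgeR adjusted p under 0.05, that is, from its quasi-likelihood test after Benjamini-Hochberg correction over the 20006 genes with at least 10 counts. In Tlx3cko, 2.56% of these genes were lower and 1.69% were higher past the threshold. Tlx3 itself had 1973, 2256 and 1941 normalized counts in control replicates 1, 2 and 3 and 1652, 1380 and 1452 in the Tlx3cko replicates (log2 fold change -0.46, SE 0.09, edgeR adjusted p = 0.0122). Which exons were floxed is not stated in the sources used here, so this sum over the whole gene is a partial check of the labels. Leaving out 1 library at a time, Tlx3 missed the threshold in 3 of 6 fits (highest edgeR adjusted p 0.0910). Control replicates 1 and 2 had 0 counts of the Y-linked gene Ddx3y, while control replicate 3 had 525 and the Tlx3cko libraries 273 to 390, so control replicate 3 is the only control library that matches the Tlx3cko libraries in sex. Its value is given beside each receptor that passed the threshold.

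Transcripts of 3 of the 10 receptors fell in Tlx3cko DRGs past the threshold, namely P2rx2, P2rx3 and P2ry1, beside 2.56% of all genes tested. The study had already named P2rx2 and P2rx3 as down-regulated in Tlx3cko DRGs. The 10 receptors were chosen with earlier results of these data known, so setting these shares side by side is a description and not a test. None rose past it with edgeR, DESeq2 or limma-voom, beside 1.69% of all genes called higher with edgeR. At an unadjusted edgeR p under 0.05, 0 receptors were higher, beside 6.63% of all genes tested. At this cutoff 4 receptors were lower, namely P2rx2, P2rx3, P2ry1 and P2rx4. The share of all genes lower at this cutoff was not counted. P2rx2 was nearly lost, with 4.42% of its control level remaining. P2rx3 kept 50.4% and P2ry1 kept 59.8%. The other 7 receptors ranged from 61.9% for P2ry12 to 117% for P2rx6 and did not pass. The median log2 fold change over the 10 receptors was -0.28, beside -0.0036 over all genes tested, with medians of -0.28 over the 6 P2X and -0.36 over the 4 P2Y genes.

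**Figure D1:**
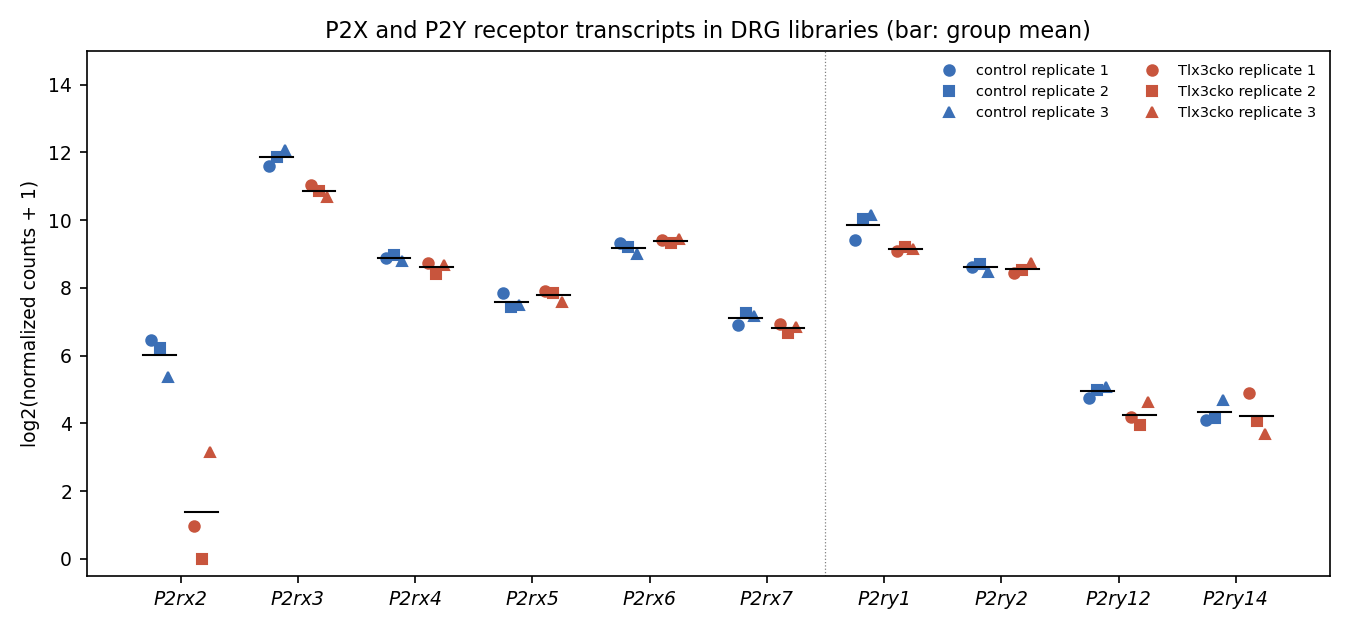
Normalized counts of the 10 receptors on a log2 scale after adding 1 (vertical axis), with 1 point for each of the 3 control (blue) and 3 Tlx3cko (red) libraries and a bar at the group mean. P2rx2, P2rx3 and P2ry1 lie lower in all 3 Tlx3cko libraries, and P2rx2 falls to 0 in Tlx3cko replicate 2.

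P2rx3 encodes P2X3, the ATP-gated channel subunit that marks nonpeptidergic nociceptors. The gene (ENSMUSG00000027071) is protein coding (GRCm38 chromosome 2, positions 84998583 to 85037462, minus strand). It had 3121, 3729 and 4331 normalized counts in control replicates 1, 2 and 3, and 2112, 1870 and 1654 in Tlx3cko replicates 1, 2 and 3. All Tlx3cko libraries were thus below all control libraries, and control replicate 3 was the highest of the 6. The means were 3727 ± 605 in control and 1879 ± 229 in Tlx3cko (SD, n = 3 each). This is a log2 fold change of -0.99 (SE 0.12, 95% interval -1.25 to -0.73, edgeR adjusted p = 0.000259). P2rx3 passed the threshold in each of the 6 fits that left out 1 library, with log2 fold changes from -1.10 to -0.87 and a highest edgeR adjusted p of 0.0033. Only 1.83% of its exonic bases lie under another gene, Ssrp1 on the opposite strand, whose log2 fold change was -0.09 (edgeR adjusted p = 0.775).

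P2rx2 encodes P2X2, the subunit that assembles with P2X3 into channels with slower desensitization. The gene (ENSMUSG00000029503) is protein coding (chromosome 5, positions 110339812 to 110343212, minus strand). Its raw counts were low, 80, 74 and 50 in control replicates 1, 2 and 3 and 1, 0 and 8 in the Tlx3cko replicates. After normalization these were 86.3, 73.8 and 39.9 against 0.962, 0 and 7.87. The groups did not overlap, and control replicate 3, although the lowest control, was still above every Tlx3cko library. The count of 0 in Tlx3cko replicate 2 allows up to 3 counts in that library, so the transcript may be present below detection at this depth. The means were 66.7 ± 24.0 and 2.95 ± 4.29 (SD, n = 3 each). The log2 fold change was -4.34 (SE 0.64, 95% interval -5.73 to -2.95, edgeR adjusted p = 0.00137). The size of the change rests on few reads. It ranged from -6.61 without Tlx3cko replicate 3 to -3.87 in fits that left out 1 library, and the highest edgeR adjusted p of these was 0.00988.

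Relative to its partner P2rx3, P2rx2 was lower in all Tlx3cko libraries than in any control. Per 1000 P2rx3 counts there were 27.7 P2rx2 counts in control replicate 1 (95% exact binomial interval 21.9 to 34.5), 19.8 in replicate 2 (15.5 to 24.9) and 9.21 in replicate 3 (6.83 to 12.2). The Tlx3cko libraries had 0.456 (0.0115 to 2.54), 0 (0 to 2.59, while a limit of 3 counts allows up to 2.11) and 4.76 (2.05 to 9.40). The control libraries differed among themselves by more than counting error, since the intervals of replicates 1 and 3 do not touch, and the intervals of control replicate 3 and Tlx3cko replicate 3 overlap. These intervals cover counting error only. The mean log2 ratio of P2rx2 to P2rx3, with 0.5 added to each normalized count, was -5.85 ± 0.808 in control and -10.00 ± 2.16 in Tlx3cko (SD, n = 3 each), a difference of -4.14. The size of this difference depends on the constant added, since it was -3.65 with 1 and -2.74 with 3. It also depends on single libraries, since it was -3.21 without Tlx3cko replicate 2 and -5.33 without Tlx3cko replicate 3. Without control replicate 1 it was -3.80, and without control replicate 3 it was -4.59. Control replicate 3, the only control that matches the Tlx3cko libraries in sex, had the lowest control ratio. The part of sex in this difference was not tested. An exact two-sided permutation test over the 6 libraries gave p = 0.1, the smallest that 3 against 3 allows.

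**Figure D2:**
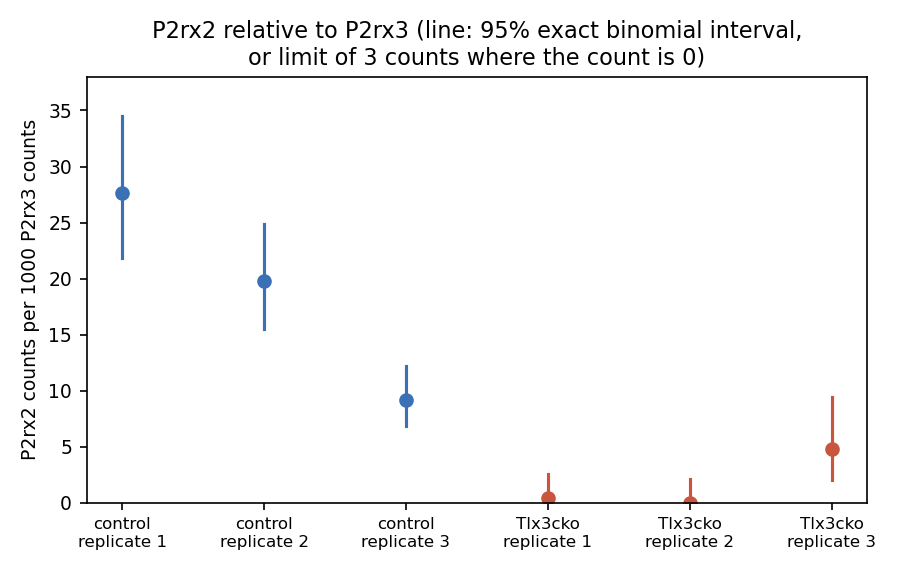
P2rx2 counts per 1000 P2rx3 counts (vertical axis) in each control (blue) and Tlx3cko (red) library, with 95% exact binomial intervals as lines (for the library at 0, the limit of 3 counts). The 3 controls lie between 9.21 and 27.7 and the 3 Tlx3cko libraries between 0 and 4.76.

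The remaining 4 P2X genes had log2 fold changes from -0.30 for P2rx7 to 0.23 for P2rx6, none past the threshold. P2rx4 encodes a subunit known from macrophages and microglia as well as neurons. It had 471, 501 and 444 normalized counts in the control replicates, against 428, 340 and 407 in Tlx3cko replicates 1, 2 and 3, so that the groups did not overlap by a narrow margin. The means were 472 ± 28.2 and 392 ± 46.2 (SD, n = 3 each). The log2 fold change was -0.26 (95% interval -0.52 to -0.00, edgeR adjusted p = 0.334). P2rx7 encodes a channel that needs high ATP levels and is best known from immune cells and glia, and its gene neighbours P2rx4 on chromosome 5. It had 118, 152 and 144 normalized counts in the control replicates, against 120, 101 and 113 in Tlx3cko replicates 1, 2 and 3, with overlapping groups (log2 fold change -0.30, 95% interval -0.70 to 0.09, edgeR adjusted p = 0.52). Of its exonic bases 1.99% are shared with the microRNA gene Mir8115 on the same strand. Neither interval shows that the levels were equal.

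P2rx5 and P2rx6 encode subunits that form weak channels by themselves and are mostly studied in mixed channels. P2rx6 had 635, 583 and 507 normalized counts in the control replicates, against 675, 644 and 699.7 in Tlx3cko replicates 1, 2 and 3, the one receptor for which every Tlx3cko library was above every control. The means were 575 ± 64.1 and 673 ± 27.8 (SD, n = 3 each). The log2 fold change was 0.23 (95% interval -0.00 to 0.46, edgeR adjusted p = 0.357), which did not pass the threshold. Of its exonic bases 13.9% are shared with Slc7a4 on the opposite strand, which rose (log2 fold change 0.46, SE 0.12, edgeR adjusted p = 0.045). The library kit named by the study does not mark strand, so reads in these shared bases cannot be assigned to one of the genes. P2rx5 had 229, 172 and 178 normalized counts in the control replicates, against 238, 231 and 191 in Tlx3cko replicates 1, 2 and 3, with overlapping groups (log2 fold change 0.19, 95% interval -0.16 to 0.55, edgeR adjusted p = 0.687).

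**Figure D3:**
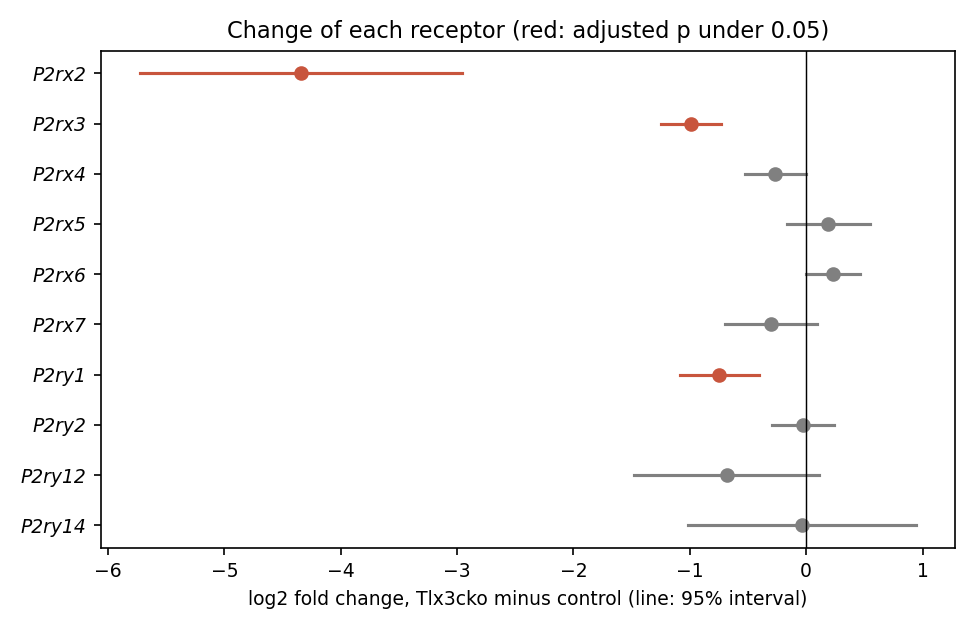
Log2 fold change of each receptor, Tlx3cko against control (horizontal axis), with 95% intervals as lines and receptors past the threshold in red. P2rx2 at -4.34, P2rx3 at -0.99 and P2ry1 at -0.75 are the 3 red points, and of the 7 grey intervals that of P2rx4 ends just below zero and the 6 others include it.

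The P2X make-up of the libraries also differed between the groups. Divided by exon length, P2rx3 gave 74.9%, 79.6% and 83.6% of the summed P2X counts per kb in the control replicates and 68.4%, 67.5% and 63.9% in the Tlx3cko replicates. P2rx6 took 10.6%, 8.69% and 6.84% in control and 15.3%, 16.2% and 18.9% in Tlx3cko libraries, again with no overlap. The share of P2rx5 was 4.89% ± 1.31 in control and 9.09% ± 0.568 in Tlx3cko (SD, n = 3 each), while its own level did not pass the test. The share of P2rx2 went from 1.60% ± 0.712 to 0.121% ± 0.181. These shares add up to the whole in each library, so a fall of P2rx3 raises the others by arithmetic, and they were not tested. The summed P2X level was 1494, 1680 and 1857 counts per kb in the control replicates, against 1107, 993 and 928 in Tlx3cko.

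**Figure D4:**
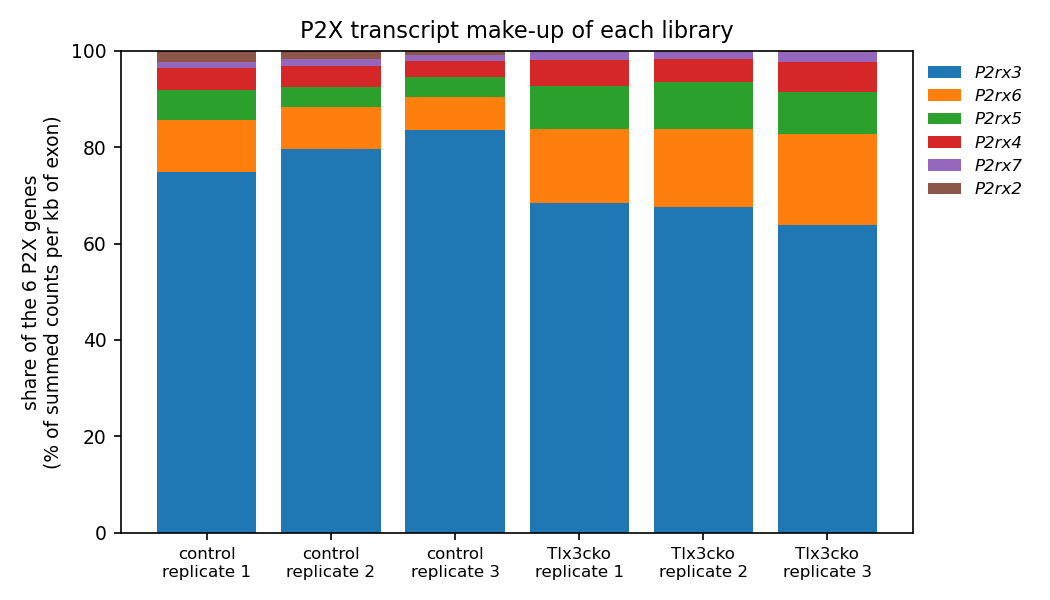
Share of each P2X gene in the summed P2X counts per kb of exon (vertical axis, percent) in the 3 control and 3 Tlx3cko libraries. P2rx3 (blue) takes 74.9% to 83.6% in control and 63.9% to 68.4% in Tlx3cko libraries, and P2rx6 (orange) takes the next largest share in all 6.

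P2ry1 encodes the ADP receptor P2Y1, which signals through Gq proteins. The gene (ENSMUSG00000027765) is protein coding (chromosome 3, positions 61002795 to 61008982, plus strand). It had 674, 1035 and 1145 normalized counts in control replicates 1, 2 and 3, and 548, 593 and 566 in Tlx3cko replicates 1, 2 and 3. The Tlx3cko libraries lay close together and below all controls, while control replicate 1 was far below the other controls and nearest to the Tlx3cko libraries. The means were 951 ± 247 and 569 ± 22.9 (SD, n = 3 each). The log2 fold change was -0.75 (SE 0.16, 95% interval -1.09 to -0.40, edgeR adjusted p = 0.0159). The call was less firm than those of P2rx2 and P2rx3. Leaving out 1 library at a time, P2ry1 missed the threshold in 5 of 6 fits (edgeR adjusted p 0.0590 to 0.0788) and held only without control replicate 1 (edgeR adjusted p = 0.000225), with log2 fold changes from -0.94 to -0.59.

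An antisense long noncoding RNA, Gm37035, overlies the first 992 bases of P2ry1 from the opposite strand (chromosome 3, 61001639 to 61003786), which is 23.1% of the exonic bases of P2ry1. Gm37035 had 838, 1167 and 1260 normalized counts in the control replicates, against 602, 748 and 757 in Tlx3cko replicates 1, 2 and 3, and it also fell (log2 fold change -0.64, SE 0.14, edgeR adjusted p = 0.0236). The ratio of P2ry1 to Gm37035 counts was 0.804, 0.887 and 0.909 in control and 0.910, 0.793 and 0.748 in Tlx3cko libraries, with overlapping groups. Without strand, reads in the shared bases cannot be told apart. How such reads were counted is not given, so the values of the pair may not be independent. The 250 bases before the RefSeq start of P2ry1 (GRCm38.p6, chr3:61002535-61002784, plus strand, 5′ to 3′) lie wholly within the Gm37035 exon and are shown because both transcripts that fell cover or begin beside this stretch. Capitals mark the GC box CCGCCC, searched on both strands together with its reverse complement GGGCGG.
P2ry1: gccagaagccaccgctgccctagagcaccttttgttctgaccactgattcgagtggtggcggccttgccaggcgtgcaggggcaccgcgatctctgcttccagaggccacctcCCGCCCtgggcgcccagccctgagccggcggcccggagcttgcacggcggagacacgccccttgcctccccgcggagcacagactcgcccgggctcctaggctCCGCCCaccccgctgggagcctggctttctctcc
It held 2 GC boxes, where 32.7% of the 32851 RefSeq mouse promoter stretches of this length held at least 1, and 16.7% at least 2. The homeodomain core TAAT, searched on both strands, was found 0 times, where 54.9% of the stretches held it, and 70.8% of the bases were G or C beside a median of 52.4%. Such matches describe letters and are not binding sites. Promoter entries were matched for 7 of the 10 receptors, and P2rx2, P2rx3 and P2rx5 had none.

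The other 3 P2Y genes did not pass the threshold. P2ry2 encodes a Gq-coupled receptor for ATP and UTP. It had 394, 417 and 354 normalized counts in the control replicates, against 346, 371 and 423 in Tlx3cko replicates 1, 2 and 3, with interleaved groups (log2 fold change -0.03, 95% interval -0.30 to 0.24, edgeR adjusted p = 0.952). P2ry12, which encodes the Gi-coupled ADP receptor of platelets and microglia, had 25.9, 30.9 and 32.7 normalized counts in the control replicates, against 17.3, 14.4 and 23.6 in Tlx3cko replicates 1, 2 and 3. All Tlx3cko values were below all controls, but the counts were few and the interval wide (log2 fold change -0.68, 95% interval -1.48 to 0.11, edgeR adjusted p = 0.447). P2ry14, which encodes a receptor for UDP-glucose and related sugars, had 16.2, 17.0 and 24.7 normalized counts in the control replicates, against 28.9, 15.7 and 11.8 in Tlx3cko replicates 1, 2 and 3. Tlx3cko replicate 1 was the highest and replicate 3 the lowest of the 6 (log2 fold change -0.04, 95% interval -1.02 to 0.94, edgeR adjusted p = 0.984). The interval does not exclude changes of up to about 2-fold in either direction. Both genes lie on chromosome 3 within the span of Med12l on the opposite strand, whose log2 fold change was -0.22 (edgeR adjusted p = 0.513).

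Counting libraries without a test, every Tlx3cko value was below every control value for 5 of the 10 receptors (P2rx2, P2rx3, P2rx4, P2ry1 and P2ry12), beside 10.8% of all genes tested. For 1 receptor, P2rx6, all Tlx3cko values exceeded all control values, beside 8.87% of all genes tested. The remaining 4 receptors overlapped.

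Per kb of exon, P2rx3 stood far above the others in control DRGs at 1336 ± 217 normalized counts per kb (SD, n = 3). P2ry1 followed at 222 ± 57.5 and P2rx6 at 144 ± 16.0, and the values of these neighbours overlapped. P2ry2 at 98.9 ± 8.08 and P2rx5 at 80.5 ± 13.1 also overlapped, with P2rx4 next at 67.2 ± 4.01. P2rx2 at 25.9 ± 9.34 overlapped P2rx7 at 23.1 ± 2.97. P2ry12 at 11.7 ± 1.38 and P2ry14 at 1.74 ± 0.427 were the lowest. In Tlx3cko DRGs P2rx3 remained first at 674 ± 82.0 counts per kb, P2rx6 at 168 ± 6.95 stood above P2ry1 at 133 ± 5.34 in every library, and P2rx2 was last at 1.14 ± 1.67, overlapping P2ry14 at 1.70 ± 0.808. These levels rest on all annotated exons of each gene, so a gene with a long annotated end that is little used appears lower.

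The genes whose log2 normalized counts followed P2rx3 and P2ry1 most closely over the 6 libraries were sought among the 13372 genes with a mean of at least 50. For P2rx3 they were Vps4b (Pearson r 0.999), Ppil4 (0.998), Tpd52 (0.996), Bex3 (0.995) and Lgals9 (0.995), with log2 fold changes from -0.62 for Bex3 to -0.36 for Ppil4. For P2ry1 they were Bcap29 (0.998), Ranbp10 (0.990), Scin (0.990), Trpv2 (0.989) and Nsf (0.989), with log2 fold changes from -1.31 for Scin to -0.07 for Ranbp10. With 6 libraries and this many genes, values this close to 1 are a description of these libraries. No gene was shared between the lists of 5.

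Markers of cell classes were compared because receptor levels in whole ganglia can follow the cells present. In such bulk samples, fewer cells of a type and less RNA per cell cannot be told apart. All 7 markers of the nonpeptidergic NP1 class (MrgprD neurons), which is known for P2X3, were lower past the threshold in edgeR's test, with a median log2 fold change of -1.30 and summed normalized counts of 21324 to 25192 in control and 11198 to 12551 in Tlx3cko libraries. Lower past the threshold were also 2 of 4 tested markers of NP2 (MrgprA3), 7 of 8 of NP3 (Nppb, Sst) and 5 of 5 of TH+ C-LTMR neurons. Another NP2 marker, Mrgprx1, was higher in all Tlx3cko libraries than in any control and passed with limma-voom but not with edgeR or DESeq2 (log2 fold change 0.95, edgeR adjusted p = 0.0798). Of 7 peptidergic markers 3 rose and 1 fell, with sums of 24329 to 25672 and 39719 to 42974. With DESeq2 4 of them rose and 2 fell, and with limma-voom 3 rose and 1 fell. Of 8 pan-neuronal markers 1 fell and 0 rose (2 were higher at an unadjusted edgeR p under 0.05, 1 with DESeq2 and 0 with limma-voom), with a median log2 fold change of 0.02. Of 10 macrophage and microglia markers, which bear on P2rx4, P2rx7 and P2ry12, 0 passed with edgeR, DESeq2 or limma-voom and 2 were lower at an unadjusted edgeR p under 0.05. Their sums were 912 to 1072 in control and 787 to 899.5 in Tlx3cko libraries. Of 7 satellite glia markers 0 passed with edgeR or limma-voom, 1 was higher with DESeq2 and 2 were higher at an unadjusted edgeR p under 0.05. Among the other lists, 3 of 8 markers of myelinated neurons, 1 of 7 of Schwann cells and 1 of 6 of endothelial and mural cells were higher, and 1 of 2 tested spinal cord markers was lower. Of the Schwann cell markers, 2 were higher and 1 lower with DESeq2, and 1 higher and 1 lower with limma-voom. The Schwann cell marker Pmp22 had a log2 fold change of -0.31 (edgeR adjusted p = 0.0663). No marker of red blood cells or of lymphocytes and granulocytes passed with edgeR, DESeq2 or limma-voom, and at an unadjusted edgeR p under 0.05 these had 1 and 2 lower. Skeletal muscle markers varied between libraries, with sums of 88.5 to 1779 in control and 1478 to 2776 in Tlx3cko, and 1 of 5 (Myh4) was higher with edgeR. With DESeq2 0 muscle markers were higher, and with limma-voom 1 was. The part of any of these cell classes in the receptor values was not tested.

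The other genes of the purine pathway were taken from lists of 33 genes, of which 25 had enough counts. In Tlx3cko DRGs 7 were lower past the threshold, 1 was higher and 17 did not pass, with a median log2 fold change of -0.18, beside 2.56% of all genes lower and 1.69% higher. Of the 6 P2 receptor genes outside the set, 3 had enough counts. Of these, 0 passed with edgeR or limma-voom or had an unadjusted edgeR p under 0.05. DESeq2 gave no adjusted p for P2rx1 and P2ry13, and P2ry6 did not pass with it (DESeq2 adjusted p = 0.956). P2rx1, the P2X subunit of smooth muscle and platelets, had 0 counts in all libraries but Tlx3cko replicate 3, which had 10. P2ry6 had 4 to 25 counts and P2ry13 0 to 7.

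In the list of extracellular nucleotide breakdown 3 genes fell. Acpp, which encodes prostatic acid phosphatase, an ectonucleotidase of nonpeptidergic nociceptors that turns AMP into adenosine, had 6490, 6847 and 7788 normalized counts in the control replicates, against 2734, 2644 and 2545 in Tlx3cko replicates 1, 2 and 3. Control and Tlx3cko groups were far apart (log2 fold change -1.41, SE 0.08, edgeR adjusted p = 1.06e-06). Nt5e, which encodes CD73, the other main AMP-hydrolysing enzyme of these neurons, had 764, 661 and 1176 in control and 279, 222 and 217 in Tlx3cko libraries (log2 fold change -1.86, SE 0.19, edgeR adjusted p = 9.05e-05). Entpd3, an ATP- and ADP-hydrolysing ectoenzyme, was lower by a small amount, 2213 ± 68.3 against 1774.5 ± 36.2 (SD, n = 3 each, log2 fold change -0.32, edgeR adjusted p = 0.0261), and leaving out 1 library at a time, it missed the threshold in 5 of 6 fits. The other 6 tested genes of this list did not pass, and the median of its 9 tested genes was -0.24.

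Of the 3 adenosine receptor genes with enough counts, Adora2a fell, averaging 147 ± 18.3 normalized counts in the controls against 72.2 ± 8.09 in Tlx3cko (SD, n = 3 each, log2 fold change -1.02, SE 0.20, edgeR adjusted p = 0.00891), a call that was lost with a term for Y-linked counts (edgeR adjusted p = 0.187). Adora2b had 72.3, 67.8 and 40.7 in control and 11.5, 17.1 and 34.4 in Tlx3cko libraries and did not pass with edgeR (log2 fold change -1.50, SE 0.40, edgeR adjusted p = 0.055) or limma-voom (adjusted p = 0.0720), but was lower past the threshold with DESeq2 (adjusted p = 0.0160). Adora1, the abundant inhibitory receptor, had 2374 ± 238 and 2094 ± 206 (edgeR adjusted p = 0.44), and Adora3 had 0 counts in all libraries. Of the exonic bases of Adora1, 20.1% are shared with Mybph on the opposite strand, and reads there cannot be assigned without strand. Genes of adenosine uptake and metabolism moved in both directions. Slc29a1, which encodes the equilibrative transporter ENT1, fell from 644 ± 46.0 to 386 ± 21.9 (log2 fold change -0.74, edgeR adjusted p = 0.00125). It shares 6.86% of its exonic bases with Gm17080 on the opposite strand. Adk, adenosine kinase, kept 66.3% of its level (log2 fold change -0.59, edgeR adjusted p = 0.00423), and Ada, adenosine deaminase, kept 28.7% (log2 fold change -1.80, edgeR adjusted p = 0.000321). Slc29a4, which encodes the transporter PMAT, rose from 961 ± 161 to 1720 ± 144 (SD, n = 3 each, log2 fold change 0.84, SE 0.12, edgeR adjusted p = 0.000925).

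Among the 4 tested genes of ATP release, 0 passed with edgeR or limma-voom, 1 (Panx1) was lower with DESeq2, and at an unadjusted edgeR p under 0.05 1 was lower and 1 higher. Panx1, the pannexin channel that releases ATP, averaged 1377 ± 142 normalized counts in the controls against 1083 ± 30.3 in Tlx3cko (SD, n = 3 each, log2 fold change -0.35, edgeR adjusted p = 0.0543). Panx2, a related channel, had a log2 fold change of 0.20 (edgeR adjusted p = 0.296).

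**Figure D5:**
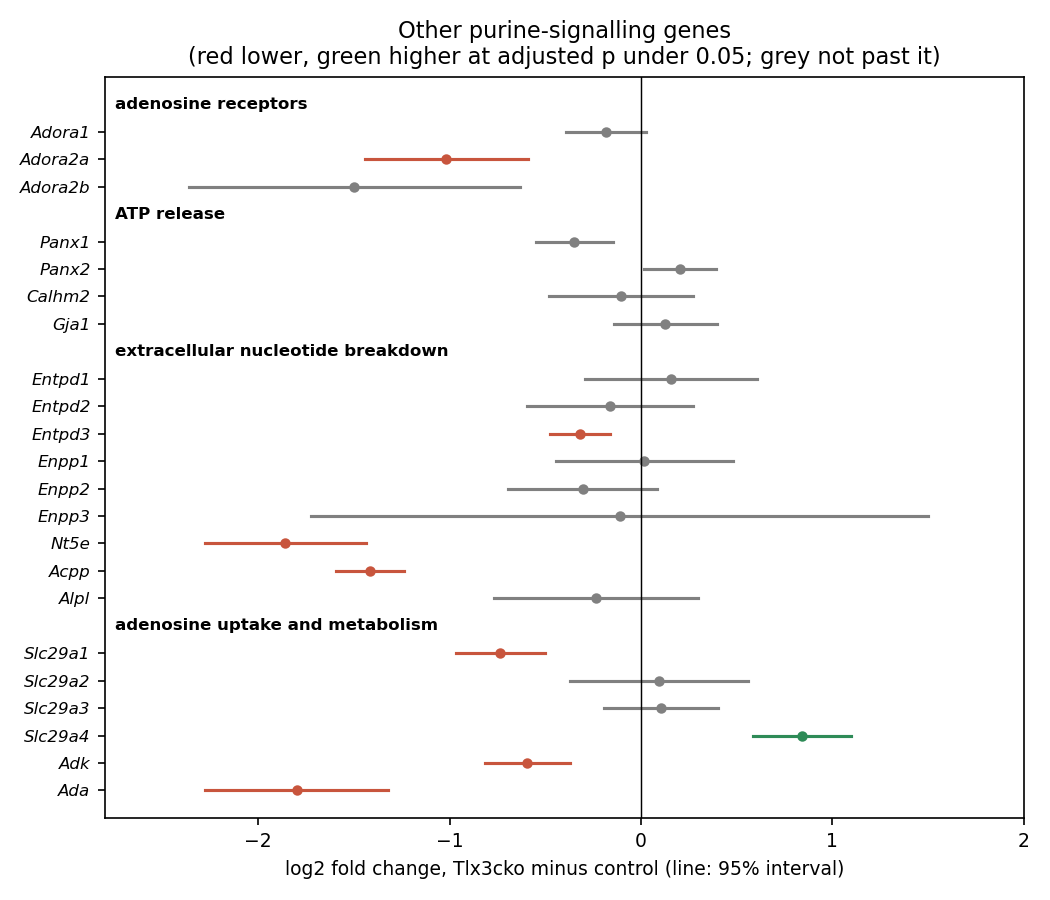
Log2 fold change, Tlx3cko against control (horizontal axis), of the tested genes of 4 purine lists with 95% intervals as lines, red where lower and green where higher past the threshold. Nt5e at -1.86, Ada at -1.80 and Acpp at -1.41 are the lowest of the red points, and Slc29a4 at 0.84 is the green one.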

How the data were processed

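The authors aligned the reads to mm10 with STAR 2.5.2a, per the labels' processing notes, and deposited raw counts of reads per gene for the 6 libraries. The NEBNext Ultra RNA kit used for the libraries does not mark strand. The counting program, annotation release and use of strand are not given in the sources used here. The table holds 47937 loci, of which 208 have no Ensembl identifier, and 47310 of its 47729 Ensembl identifiers were matched to GENCODE M21 symbols on GRCm38, which also gave positions and exon lengths.

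Tests used edgeR 4.0.16 on genes that reached 10 counts summed over all libraries (R 4.3.3, TMM normalization, quasi-likelihood test, genotype as the only term, Benjamini-Hochberg adjustment). limma 3.58.1, DESeq2 1.42.0, other filters and thresholds, a replicate block, a term for Y-linked counts and fits without 1 library served as alternatives. TMM factors lay between 0.994 and 1.01. Replicate libraries differed beyond sampling noise (chi-square per degree of freedom 4.32 to 10.1) and were treated as separate samples, and p-values measure only the spread between them. blastn 2.17.0+ (at least 100 bases, 98% identity) found sequence shared by a receptor with another gene only at the overlapping loci of P2rx6 and Slc7a4, P2rx7 and Mir8115, and P2ry1 and Gm37035.

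The genes named are the 10 receptors, Tlx3, genes that overlap a receptor, members of the purine lists past the threshold with at most 3 others per list, the most abundant of the rest, marker lists by count, and the 5 genes most like P2rx3 and P2ry1. The members and lists were chosen with earlier results of these data known. The test was also tested on simulated counts with known changes.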

Additional observations from a re-analysis of the deposited data

How the results depend on the processing

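Over all alternatives 0 receptors were higher past the threshold. P2rx2, P2rx3 and P2ry1 kept their direction under each of the 17 alternatives. The threshold of 0.01 and the 2-fold minimum reuse the main fit, so direction could not change there. Adjusted p ran from 7.23e-17 to 0.026 for P2rx2, 1.86e-26 to 0.0033 for P2rx3 and 1.95e-09 to 0.0788 for P2ry1. The lowest value of each came from the fit without a filter on low counts. P2ry1 lost its call in 7 of the 17 alternatives. The number of receptors lower past the threshold was 1 (P2rx2) with a further 2-fold minimum, and 2 to 3 when a library was left out; under the 2-fold rule the purine genes gave 4 lower and 0 higher. The number of genes past the threshold among all genes was 1529 without a filter on low counts, 487 with a term for Y-linked counts, 418 at an adjusted p under 0.01, 315 with that 2-fold minimum, and 488 to 938 when a library was left out. The term for Y-linked counts rests on control replicate 3 as the only control with such counts. Under it P2rx3 had a log2 fold change of -1.20, P2rx2 of -3.61 and P2ry1 of -1.01, all past the threshold, while the calls of Tlx3 (adjusted p = 0.223), Adora2a (0.187) and Entpd3 (0.138) were lost. P2ry2 turned to 0.10 under this term and ranged from -0.11 to 0.037 when a library was left out, and P2ry14 ranged from -0.50 to 0.22. The causes of these differences were not tested.

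Same-numbered control and Tlx3cko libraries did not deviate together (correlations -0.139, -0.00357 and -0.121 over 13373 genes). These values give no sign of pairing by number, but they cannot show that the samples were unpaired. With a replicate block 770 genes passed, 3 receptors were lower, and Entpd3 was lost (adjusted p = 0.0651). P2rx2, P2ry12 and P2ry14 are limited by depth, with at most 80 counts in a library.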
